A study of Mus musculus with 8 samples.

Results

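The genes described here are 10 genes of the lysosome: Grn, which encodes progranulin, Psap, which encodes prosaposin, and the cathepsins Ctsa, Ctsb, Ctsd, Ctsh, Ctsk, Ctsl, Ctss and Ctsz. They were taken by symbol from a table of 55487 gene identifiers, and all 10 were among the 15135 genes with at least 10 reads in every library. Grn and Ctsh were selected on the study's comparison of treatments, which was not analysed here, and Ctsl and Ctsd on their level in muscle, so levels are given as a description with no test. The samples were muscles of 8 male C57BL/6J mice, 10 weeks old, that all received K14Q MOTS-c, a variant of the mitochondrial microprotein MOTS-c, while both hindlimbs were held in casts. The immobilization lasted 8 days, and the peptide was given intraperitoneally at 15 mg/kg/day in 2 injections per day. The sample labels name vastus lateralis, whereas the design text and the methods name gastrocnemius. All 8 mice formed the only group analysed here (immobilization K14Q MOTS-c), and the WT MOTS-c and control libraries were not analysed here. The questions were therefore how high each gene stood in this muscle, how far it varied between mice, and with which other genes it varied.

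Lysosomes are acidic organelles that break down proteins, lipids and sugars delivered by endocytosis and autophagy, and cathepsins are their main proteases. Ctsb, Ctsh, Ctsk, Ctsl, Ctss and Ctsz encode cysteine proteases, Ctsd encodes an aspartic protease, and Ctsa encodes a serine carboxypeptidase that also protects the sialidase Neu1 and the galactosidase Glb1. Prosaposin is cut into saposins, which help enzymes to degrade sphingolipids, and progranulin is a secreted protein that reaches the lysosome through sortilin or together with prosaposin and is cut there into granulins. In muscle, Ctsl is known as a gene that rises in wasting fibres, whereas Ctss and Grn are known from macrophages and Ctsk from osteoclasts and fibroblasts.

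The libraries held between 23985356 and 33012497 reads, and the 10 genes took between 0.114% and 0.209% of them. Between 18.8% and 26.2% of a library's reads came from its 10 most abundant genes. Muscle fibre markers (Acta1, Ckm, Mylpf, Tnnt3, Myh4 and Pvalb) were present in all 8 mice, with a summed level of 1467789 to 3045731 normalized counts. Macrophage markers summed to 2457 to 5801 normalized counts, and 10 of the 11 were at or above 10 reads in every library, the exception being Cx3cr1 at 1 to 11 reads. Fibroblast markers summed to between 10294 and 19186 normalized counts. Endothelium markers summed to 3020 to 4679, adipocyte markers to 208 to 730 and mast cell markers to 67.3 to 228. All 4 genes of each of these lists reached 10 reads in every library. Markers of neutrophils (1.10 to 51.7 normalized counts in sum), T cells (0.917 to 6.62) and osteoclasts (14.2 to 39.3) were low, and none of their genes reached 10 reads in every library. A normalized count is a read count divided by the size factor of its library.

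Promoters are shown for Grn and Ctss, which varied most closely together, and for Ctsl, Ctsd and Ctsa, which hold the CACGTG element. RefSeq (GRCm38.p6) gave windows of 300 bases, from 250 bases before to 50 bases after a start of transcription, for 8 of the 10 genes and 10 starts, with no entry matched for Ctsb and Ctsh. CACGTG, the E-box core of the sites bound by Tfeb, a regulator of lysosomal genes, was searched on both strands, as was GAGGAA, a core bound by ETS factors such as the macrophage factor PU.1. Capitals mark CACGTG in Ctsd, Ctsl and Ctsa, and GAGGAA or its reverse complement TTCCTC in Grn and Ctss.
Grn, chr11:102430257-102430556, plus strand: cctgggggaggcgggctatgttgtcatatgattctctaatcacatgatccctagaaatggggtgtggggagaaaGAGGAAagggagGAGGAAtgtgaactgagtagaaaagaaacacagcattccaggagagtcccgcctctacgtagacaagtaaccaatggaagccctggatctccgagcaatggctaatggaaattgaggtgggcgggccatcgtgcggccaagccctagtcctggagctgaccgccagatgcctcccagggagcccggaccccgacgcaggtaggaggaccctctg
Ctss, chr3:95526536-95526835, plus strand: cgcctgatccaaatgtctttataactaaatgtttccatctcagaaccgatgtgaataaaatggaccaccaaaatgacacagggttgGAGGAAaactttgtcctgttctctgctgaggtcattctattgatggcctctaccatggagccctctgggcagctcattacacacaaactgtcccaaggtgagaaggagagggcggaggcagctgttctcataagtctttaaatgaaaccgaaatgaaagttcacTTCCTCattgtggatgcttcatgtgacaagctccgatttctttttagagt
Ctsd, chr7:142387778-142388077, minus strand: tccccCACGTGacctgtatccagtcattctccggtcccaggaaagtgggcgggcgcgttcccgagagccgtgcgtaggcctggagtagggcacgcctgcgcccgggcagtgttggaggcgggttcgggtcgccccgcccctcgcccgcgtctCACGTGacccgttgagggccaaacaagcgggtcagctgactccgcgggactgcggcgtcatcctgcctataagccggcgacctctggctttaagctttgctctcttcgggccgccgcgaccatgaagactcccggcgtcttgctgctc
Ctsl, chr13:64370471-64370770, minus strand: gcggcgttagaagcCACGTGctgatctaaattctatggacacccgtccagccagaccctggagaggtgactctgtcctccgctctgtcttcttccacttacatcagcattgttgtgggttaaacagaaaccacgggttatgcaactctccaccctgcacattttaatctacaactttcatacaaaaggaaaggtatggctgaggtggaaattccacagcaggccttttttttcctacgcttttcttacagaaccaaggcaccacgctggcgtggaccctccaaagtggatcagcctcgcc
Ctsa, chr2:164833523-164833822, plus strand: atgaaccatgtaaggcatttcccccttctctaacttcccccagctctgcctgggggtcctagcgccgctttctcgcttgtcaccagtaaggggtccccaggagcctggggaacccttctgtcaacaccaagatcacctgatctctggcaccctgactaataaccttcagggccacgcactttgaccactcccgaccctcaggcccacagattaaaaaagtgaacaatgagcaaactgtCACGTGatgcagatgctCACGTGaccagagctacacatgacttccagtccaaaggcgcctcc

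CACGTG occurred 5 times in 3 of the 10 windows, compared with a share of 7.15% among all 32851 windows. The Ctsd window had it at -245 and -98 relative to the start, the Ctsl window at -236, and the Ctsa window shown at -12 and 5. The other Ctsa window had none. GAGGAA occurred in 4 of the 10 windows, those of Grn, Ctss and Ctsk with 2 matches each and 1 of Psap, compared with 28.3% of all windows. TATAAA, the core of the TATA box, was found in 1 window, that of Ctss, compared with 13.6% of all windows. None of the 3 motifs overlapped another in these windows, and a match describes letters only.

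The 10 genes differed widely in how far they varied between the mice. The coefficient of variation ran from 7.35% for Psap to 40.8% for Ctsl, compared with a median of 15.6% over the 15135 genes. Ctsl varied more than 96.7% of the genes tested. Mouse 4 had the highest value of 6 of the 10 genes, mouse 7 the lowest of 4, and mice 1 and 8 the lowest of 2 each.

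**Figure D1:**
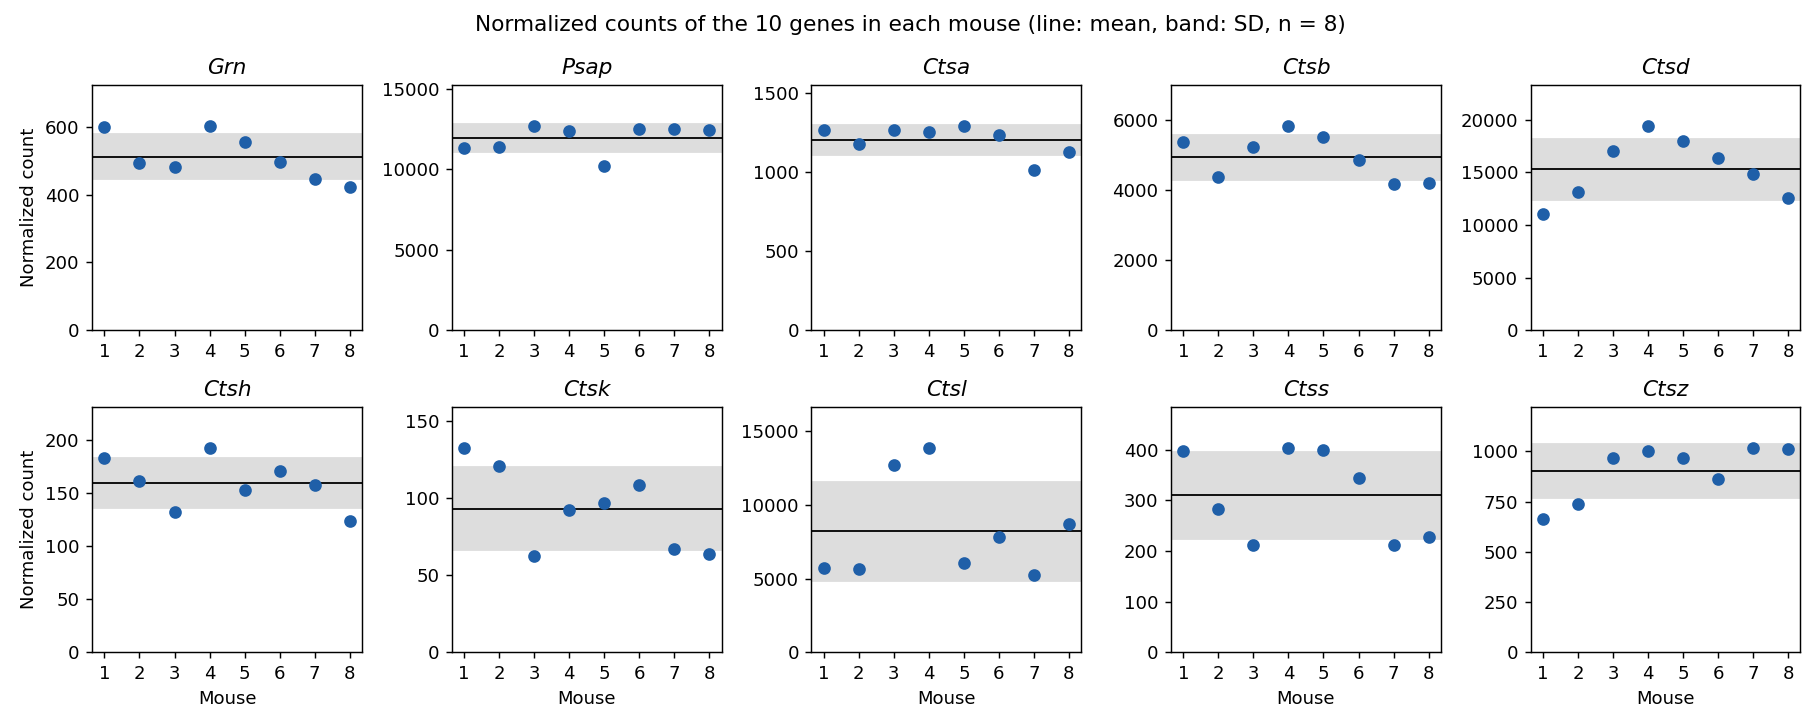
Normalized counts (vertical axes, starting at 0) of the 10 genes in mice 1 to 8 (horizontal axes), with a point per mouse, the mean as a line and the SD as a grey band. Ctsl stood at 12687 and 13861 in mice 3 and 4 and at 8707 or less in the others, whereas Psap stayed between 10234 and 12714 in all 8 mice.

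Among the cysteine proteases, Ctsl (ENSMUSG00000021477, GRCm38 chr13:64359337-64370890, minus strand) had 8215 ± 3352 normalized counts (SD, n = 8), with a lowest value of 5229, a median of 6925 and a highest of 13861. Mice 3 and 4 were high and the other 6 mice were all at 8707 or less, so that the highest value was 2.65 times the lowest. Ctsb (ENSMUSG00000021939, chr14:63122462-63145923, plus strand), an abundant endo- and exopeptidase, had 4951 ± 641 normalized counts, from 4176 in mouse 7 through a median of 5052 to 5847 in mouse 4. Its values fell in a narrow band, with a coefficient of variation of 13.0%. Ctsz (ENSMUSG00000016256, chr2:174427493-174439039, minus strand), a carboxypeptidase, had 903 ± 135 normalized counts, from 665 through a median of 965 to 1018. Mice 1 and 2 were low for Ctsz, at 665 and 736, and the other 6 mice were at or above 864.

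Ctss (ENSMUSG00000038642, chr3:95526786-95556403, plus strand), which cuts the invariant chain of MHC class II in antigen-presenting cells, had 309.8 ± 86.3 normalized counts. Its lowest value was 212, its median 313 and its highest 404. The mice separated into a high set (mice 1, 4, 5 and 6 at 343 or more) and a low set (mice 2, 3, 7 and 8 at 282 or less). Ctsk (ENSMUSG00000028111, chr3:95499256-95509362, plus strand), a collagen-degrading protease and the neighbour of Ctss on chromosome 3, had 93.1 ± 27.0 normalized counts, from 62.3 through a median of 94.8 to 133. Mice 3, 7 and 8 were low for Ctsk, as they were for Ctss. Ctsh (ENSMUSG00000032359, chr9:90054152-90076089, plus strand), an aminopeptidase, had 159 ± 23.3 normalized counts, from 124 in mouse 8 through a median of 159 to 192 in mouse 4.

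Ctsd (ENSMUSG00000007891, chr7:142375911-142388038, minus strand) had 15302 ± 2885 normalized counts, with a lowest value of 11075 in mouse 1, a median of 15613 and a highest of 19430.3 in mouse 4. It overlaps Gm49369 on the same strand, which had 6119 to 12043 reads, so the division of reads between these genes and the level of Ctsd are uncertain. Ctsa (ENSMUSG00000017760, chr2:164832873-164841032, plus strand) had 1206 ± 94.7 normalized counts, from 1013 in mouse 7 through a median of 1247 to 1295 in mouse 5. Apart from mouse 7, the mice lay close together for Ctsa, at 1126 or more. Neurl2 and Pltp overlap Ctsa on the opposite strand with 124 to 264 reads, and Fdft1 overlaps Ctsb in the same way with 1515 to 3818 reads. The use of strand in the counting is not given in the sources used here, so these neighbours may share reads.

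Psap (ENSMUSG00000004207, chr10:60277627-60302597, plus strand) had 11942 ± 877 normalized counts, with a lowest value of 10234 in mouse 5, a median of 12423 and a highest of 12714 in mouse 3. Mice 1, 2 and 5 were at 11365 or less and the other 5 mice at 12405 or more, and 6.36% of the genes tested varied less. Grn (ENSMUSG00000034708, chr11:102430315-102437048, plus strand) had 513 ± 67.0 normalized counts, from 424 in mouse 8 through a median of 496 to 604 in mouse 4. Mice 1, 4 and 5 were high for Grn, and mice 7 and 8 were low. For Grn, counting alone gives a coefficient of variation of 4.44%, compared with 13.1% measured between mice. For Ctsk, the gene with the fewest reads, the same values were 10.5% and 29.0%.

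Levels can be compared between genes only per length, and per kilobase of the union of a gene's exons the order was led by Ctsd and Psap. Ctsd had 6509 ± 1227 and Psap 4352 ± 320 normalized counts per kilobase, and Ctsd was the higher in 8 of 8 mice. Ctsl followed with 1266 ± 517, Ctsb with 818 ± 106 and Ctsz with 627 ± 94.0. Ctsl exceeded Ctsb in 7 of 8 mice, and Ctsb exceeded Ctsz in 6 of 8. Ctsa had 256 ± 20.1 and Ctss 228 ± 63.6, which did not differ beyond their spread (difference 0.21 ± 0.35 on the log2 scale, Ctsa higher in 5 of 8 mice). Grn had 148 ± 19.3, Ctsk 61.6 ± 17.8 and Ctsh 35.4 ± 5.19, each lower than the gene before it in 8 of 8 mice. Among 47 lysosomal genes (the 10 and 37 others chosen as a list), Ctsd ranked 1, Psap 3, Ctsl 5, Ctsb 6 and Ctsz 10, with Lamp1, a membrane protein of the lysosome, at rank 2.

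The length assigned to a gene moved some of these levels. With the shortest transcript that carries a consensus coding sequence (CCDS), chosen after seeing the data, Ctsl had 4168 ± 1701 normalized counts per kilobase, 3.29 times its level over all exons. Psap was then the higher in 6 of 8 mice, by 0.25 ± 0.50 on the log2 scale, so that Psap and Ctsl no longer differed beyond their spread. Ctsh then stood above Ctsk, at 98.4 ± 14.4 compared with 61.6 ± 17.8, and Ctss and Grn differed by 0.02 ± 0.26 on the log2 scale. Ctsa, which had not differed from Ctss beyond their spread over all exons, was then the higher in 8 of 8 mice, by 1.10 ± 0.35 on the log2 scale.

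**Figure D2:**
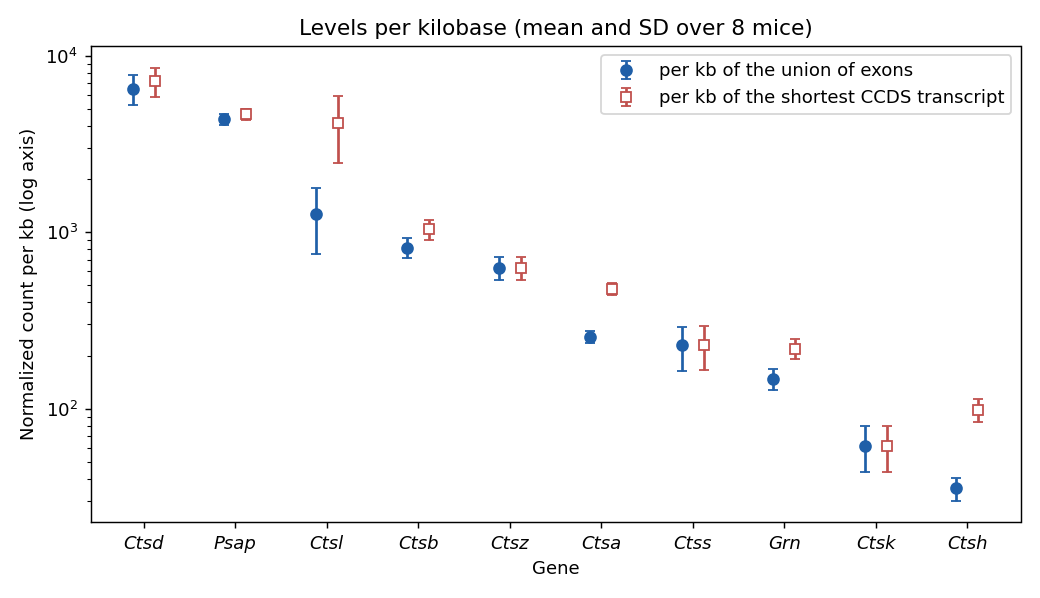
Normalized counts per kilobase (log axis) of the 10 genes, as mean and SD over 8 mice, with length taken as the union of exons (filled circles) or the shortest CCDS transcript (open squares). Ctsd stood highest with either length, and Ctsl stood at 1266 with the first and 4168 with the second.

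The cathepsin family was represented by few other genes in this muscle. Of 15 other cathepsin genes, 3 reached 10 reads in every library, 12 were below 10 reads in every library, and 10 of these had no read at all. Ctsc, which activates proteases of granulocytes, had 809 ± 170 normalized counts, Ctsf 581 ± 101 and Ctso 175 ± 27.6. Ctse and Ctsw, known from immune and epithelial cells, had at most 4 and 2 reads. Legumain (Lgmn), the lysosomal protease that processes several cathepsins, had 780 ± 71.3 normalized counts.

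Genes that act on or with the 10 were also measured. Of the cystatins, which inhibit cysteine cathepsins, Cst3 had 5296 ± 594, Cst6 552 ± 134 and Cstb 207 ± 51.4 normalized counts. Neu1 had 420 ± 49.7 and Glb1 64.3 ± 15.5, the enzymes held in a complex by Ctsa. Sort1, which encodes sortilin, had 3332 ± 655, and Tmem106b, a lysosomal membrane protein linked to progranulin, 2590 ± 285. Gpr37 and Gpr37l1, described as receptors for prosaposin and its fragments, had at most 1 and 11 reads. The mannose 6-phosphate receptors, which carry new hydrolases to the lysosome, stood at 929 ± 83.4 for M6pr and 3457 ± 604 for Igf2r. Tfeb had 1238 ± 168, Mitf 534 ± 54.4 and Tfe3 267 ± 20.6, the related factors that bind the CACGTG element.

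With the deposited scaling, all positive calls between the 10 genes lay among Grn, Ctss, Ctsb, Ctsa, Ctsh and Ctsk. When reads were scaled by library totals, more pairs were called than these genes can form, so some calls lay outside them. Relations were measured as Pearson's r of log2(normalized count + 1) over the 8 mice, with a two-sided exact permutation test over all orders of the mice. Of 45 pairs, 29 had a positive r, with a median of 0.300. The r was above 0 in every pair among Grn, Ctss, Ctsb, Ctsa, Ctsh and Ctsk, and likewise in every pair among Ctsd, Ctsl, Ctsz and Psap. These signs were not stable in 6 pairs that did not pass, where leaving out the 2 mice farthest in either gene turned r below 0: Ctsa with Ctsk (-0.392) and Ctsh (-0.123), Ctsb with Ctsk (-0.323) and Ctsh (-0.080), and Ctsd with Psap (-0.275) and Ctsz (-0.231). Over all 45 pairs, 9 were positive and 1 was negative at an unadjusted exact p under 0.05. Grn passed in 4 of its 9 pairs, compared with 5.99% of all other genes positively related to Grn at the same threshold. Ctss passed in 4 of its 9 (background 2.70%), Ctsa in 3 (5.41%), Ctsh in 3 (3.07%), Ctsb in 2 (6.05%) and Ctsk in 2 (5.39%). Psap (5.20%), Ctsd (6.42%), Ctsl (7.44%) and Ctsz (7.84%) had no positive call. The 1 negative pair was Ctsk and Ctsz. The background of negative relations was 4.39% for Grn, 4.29% for Psap, 5.47% for Ctsa, 6.28% for Ctsb and 5.13% for Ctsd. It was 2.18% for Ctsh, 5.54% for Ctsl and 2.04% for Ctss, and none of these 8 genes had such a pair. After Benjamini-Hochberg adjustment over the 15134 other genes, 0 genes passed for any of the 10, so every call below is an unadjusted one.

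**Figure D3:**
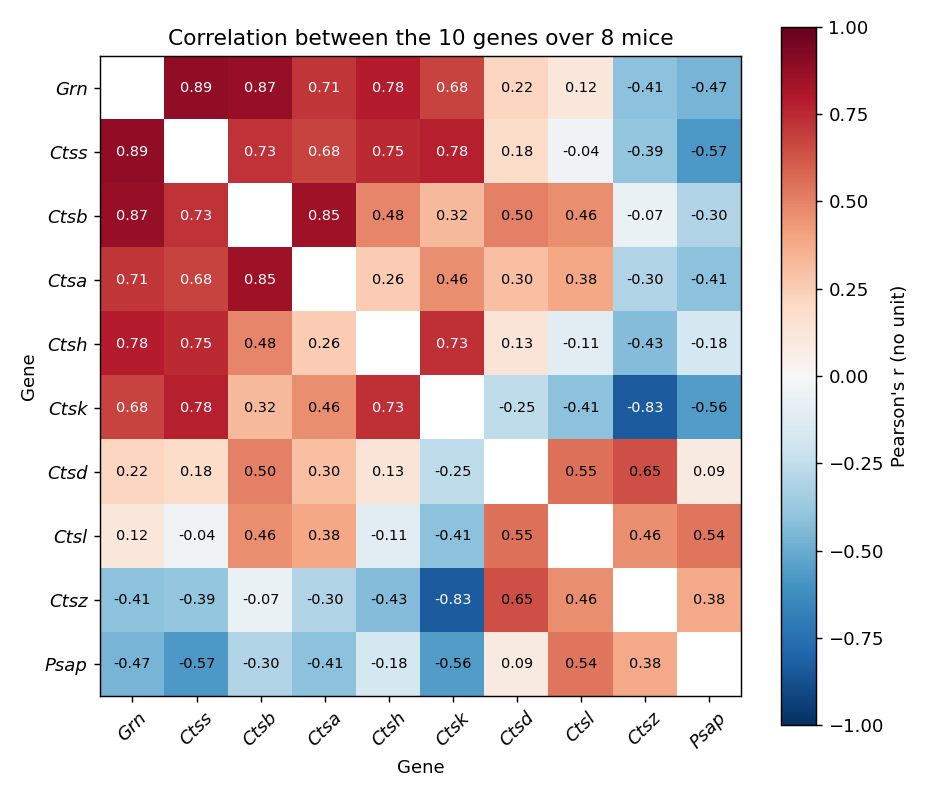
Pearson's r (colour, no unit) between each 2 of the 10 genes over 8 mice, with rows and columns in the same order. The block of Grn, Ctss, Ctsb, Ctsa, Ctsh and Ctsk was positive over the 8 mice, and the most negative value was that of Ctsk and Ctsz, -0.83.

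Grn and Ctss were the most closely related pair, with r = 0.890 (exact permutation p = 0.00608, adjusted p = 0.419 in the scan of Grn) and Spearman's rho = 0.905 (exact permutation p = 0.00456). With the 2 mice farthest from the median Grn level left out, r was 0.832. Mice 1, 4 and 5 were the 3 highest for both genes, and mice 7 and 8 were among the 3 lowest for both. Ctsa and Ctsb had r = 0.848 (exact permutation p = 0.000719, adjusted p = 0.294 in the scan of Ctsa), rho = 0.833 (p = 0.0154) and r = 0.858 without the 2 farthest mice. Grn and Ctsb had r = 0.873 (exact permutation p = 0.00749, adjusted p = 0.420), rho = 0.881 (p = 0.00724) and r = 0.811 without the 2 farthest mice. The first 2 pairs kept their call without each mouse and under every alternative, whereas Grn and Ctsb lost it once trends on GC content and length were removed (r = 0.700, exact permutation p = 0.0598).

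The other 6 positive pairs lost the call without some mice, although r stayed at 0.574 or more with 1 mouse left out. Without the 2 mice farthest in Ctsa, r was 0.309 for Ctsa and Ctss and 0.457 for Grn and Ctsa. These were 0.980 and 0.754 without the 2 mice farthest in the other gene. Ctsh and Ctsk had r = 0.308 without the 2 mice farthest in Ctsk and 0.812 without those farthest in Ctsh. For the remaining pairs r was 0.496 or more either way. Grn and Ctsh (r = 0.782, exact permutation p = 0.0223) lost the call without mouse 1, 4 or 8, with r from 0.659 to 0.735. For Grn and Ctsa (r = 0.715) this held without mouse 1, 2, 4, 5, 6 or 8, with r from 0.684 to 0.733. Ctsk and Ctss (r = 0.777) lost it without mouse 1, 3, 5, 6, 7 or 8, with r from 0.709 to 0.807, and Ctsh and Ctss (r = 0.749) without mouse 1, 2, 3, 4, 6 or 8, with r from 0.676 to 0.757. Ctsh and Ctsk (r = 0.732) lost it without mouse 1, 3, 5, 6 or 8, with r from 0.638 to 0.747, and Ctsa and Ctss (r = 0.677) without any mouse other than mouse 3, with r from 0.574 to 0.675. By Spearman's rho, 5 of these 6 pairs, other than Grn and Ctsh, did not pass, with rho from 0.524 to 0.667. In contrast, Ctsb and Ctss passed by rank (rho = 0.857, exact permutation p = 0.0107) but not by Pearson's r (0.726, p = 0.0549). The call of Ctsa and Ctss was also lost with TMM factors (r = 0.619), library totals (r = 0.602), size factors of the 8 libraries alone (r = 0.663) and trends on length and GC content removed (r = 0.594). The same removal ended the call of Grn and Ctsa (r = 0.576), and library totals ended that of Ctsh and Ctsk (r = 0.635). The count of 9 became 5 without mouse 1 and 4 without mouse 6 or mouse 8, whereas it rose with library totals.

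Both Ctsz and Psap had an r below 0 with each of these 6 genes, from -0.069 to -0.829 for Ctsz and from -0.177 to -0.573 for Psap, and of these pairs 1 passed the threshold. Without the 2 farthest mice, r turned above 0 for Ctsz with Ctsa (0.462) and Ctsb (0.505) and for Psap with Ctsb (0.296) and Ctsa (0.007). The pair that passed was Ctsz with Ctsk, with r = -0.829 (exact permutation p = 0.00856, adjusted p = 0.391 in the scan of Ctsk), rho = -0.833 (p = 0.0154) and r = -0.876 without the 2 mice farthest in Ctsk. At the same threshold, 5.72% of all other genes were negatively related to Ctsk and 5.19% to Ctsz. Mouse 1 had the highest Ctsk and the lowest Ctsz. The call was kept without each mouse but not when library totals were used for scaling (r = -0.587, exact permutation p = 0.131). By rank, Psap with Ctss also passed (rho = -0.738, exact permutation p = 0.0458), with r = -0.573 (p = 0.124).

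Macrophage markers were compared with the 10 genes because several of these are known from phagocytes. A macrophage score was taken as the mean of the z-scores of the 10 markers tested, which hold none of the 10 genes. The score was highest in mouse 4, at 1.12, and lowest in mice 7 and 8, at -1.34 and -1.17. In a bulk sample, fewer cells of a type and less RNA per cell cannot be told apart. Of the 10 genes, 5 were positively related to the score at an unadjusted exact p under 0.05, compared with 7.25% of all genes tested, and none negatively (background 5.35%). The median r of the 10 was 0.698, compared with -0.002 over all genes. The 5 were Grn, Ctsa, Ctsb, Ctss and Ctsh, and no gene of the 15135 passed after Benjamini-Hochberg adjustment, compared with 1098 positive and 810 negative at the unadjusted threshold. With the 4 list scores used here, the 10 genes gave 40 relations.

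Grn followed the macrophage score most closely, with r = 0.873 (exact permutation p = 0.00553, adjusted p = 0.346), rho = 0.905 (p = 0.00456) and r = 0.751 once mice 7 and 8, whose scores lay farthest from the median, were left out. The call of Grn held without each mouse and under every alternative. Ctsa had r = 0.822 (exact permutation p = 0.0161) but rho = 0.405 and r = -0.021 without mice 7 and 8, so that its relation rested on these mice. Ctsb had r = 0.806 (exact permutation p = 0.0118), rho = 0.738 and r = 0.457 without these mice. Ctss had r = 0.793 (exact permutation p = 0.0124), rho = 0.833 and r = 0.627, and Ctsh had r = 0.702 (exact permutation p = 0.0488), rho = 0.857 and r = 0.902. The call was lost for Ctsa without mouse 7 (r = 0.679) or 8 (r = 0.817), for Ctsb without mouse 4 (r = 0.733) or 7 (r = 0.715), and for Ctss without mouse 4 (r = 0.744) or 7 (r = 0.708). For Ctsh it was lost without mouse 1, 2, 4, 5, 6 or 8, with r from 0.539 to 0.710, and with size factors of the 8 libraries alone (r = 0.695, exact permutation p = 0.0523). Ctsb also lost it with GC content and length trends removed (r = 0.674, exact permutation p = 0.0722). The count of 5 became 3 without mouse 4 or 8 and 2 without mouse 7.

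Taken gene by gene, 8 of the 10 macrophage markers tested were positively related to Grn at the unadjusted threshold (background 5.99%). Lyz2, the lysozyme of macrophages and neutrophils, had r = 0.882 and Adgre1, which encodes F4/80, had r = 0.872. The fibroblast marker Col14a1 had a higher r with Grn than any macrophage marker, at 0.890 (exact permutation p = 0.00362), and Fbln1 had r = 0.801 (p = 0.0165), with 3 of 8 fibroblast markers past the threshold. Among the macrophage markers, C1qa had r = 0.680 (exact permutation p = 0.0663) and Cd68 r = 0.187 (exact permutation p = 0.644), the lowest of that list. For Ctsk, 6 of 10 markers passed (background 5.39%), for Ctsa 6 (5.41%), for Ctsb 4 (6.05%), for Ctss 4 (2.70%) and for Ctsh 3 (3.07%). For Ctsd (6.42%) and Ctsl (7.44%) 1 of 10 passed, and for Psap (5.20%) and Ctsz (7.84%) none, with a median r of -0.262 for Psap and -0.486 for Ctsz. Cd68 had the highest r of these markers with Ctsd (0.922), Ctsl (0.730) and Ctsz (0.706). The other markers had r from 0.080 to 0.367 with Ctsd.

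**Figure D4:**
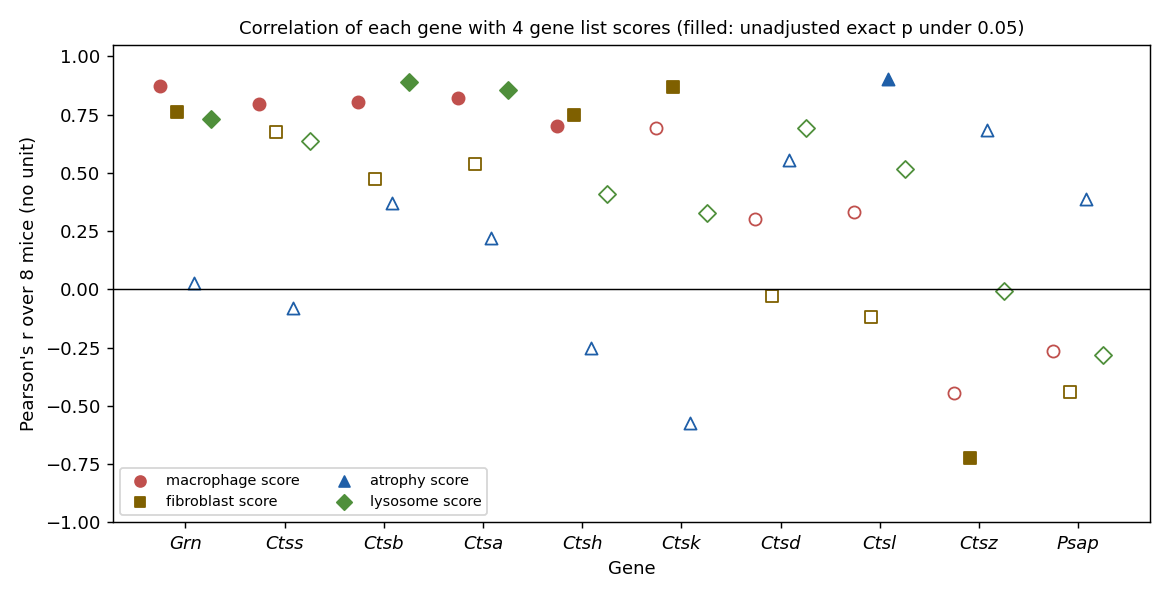
Pearson's r (vertical axis, no unit) of each of the 10 genes (horizontal axis) with the macrophage, fibroblast, atrophy and lysosome scores over 8 mice, filled where the unadjusted exact p was under 0.05. Circles show 5 filled points for the macrophage score, and the only filled triangle for the atrophy score is Ctsl, at 0.904.

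The fibroblast score, from 8 genes of the connective tissue that hold none of the 10, was related most closely to Ctsk. Ctsk had r = 0.870 (exact permutation p = 0.00754, adjusted p = 0.161), rho = 0.810 (p = 0.0218) and r = 0.820 without mice 2 and 8, whose scores lay farthest from the median, and its call held without each mouse and under every alternative. In all, 3 of the 10 genes were positively related (background 9.56%) and 1 was negatively related (background 6.75%) at the unadjusted threshold. Grn had r = 0.760 (exact permutation p = 0.0308, rho = 0.738) and 0.955 without mice 2 and 8, and Ctsh r = 0.748 (exact permutation p = 0.0337, rho = 0.690) and 0.740. Ctsz had r = -0.724 (exact permutation p = 0.0432, rho = -0.786) and -0.622. The call was lost for Grn without mouse 1, 3, 6, 7 or 8 (r from 0.653 to 0.762), for Ctsh without mouse 1, 4, 6 or 8 (r from 0.573 to 0.762), and for Ctsz without any mouse other than mouse 4 (r from -0.738 to -0.645). Ctsh did not pass by rank (exact permutation p = 0.0694). Ctsz also lost the call with library totals (r = -0.302, exact permutation p = 0.479) and after trends on length and GC content were removed (r = -0.613, p = 0.108). The count of 3 became 1 without mouse 1, 6 or 8 and 5 without mouse 2.

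The macrophage and fibroblast scores moved together, so that the relations of Grn, Ctsh and Ctsk to either are not separate. The r of the 2 scores was 0.841 (exact permutation p = 0.00977, adjusted p = 0.0375 over 6 pairs of scores), with rho = 0.762 and r = 0.517 without mice 7 and 8. Ctsk had r = 0.693 with the macrophage score (exact permutation p = 0.0630), and 0.323 without mice 7 and 8. Its median r was 0.739 with the macrophage markers and 0.682 with the fibroblast markers. Osteoclast markers, the other known source of Ctsk, were at 14.2 to 39.3 normalized counts in sum, and Acp5 was the highest of them at 22.3 ± 8.53. The fibroblast score was also positively related to 3 of 4 mast cell, 2 of 4 endothelium and 2 of 4 adipocyte markers at the unadjusted threshold (background 9.56%). For the macrophage score these counts were 2, 0 and 0 (background 7.25%).

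Ctsl was the only one of the 10 genes positively related to the atrophy score at the unadjusted threshold (background 7.89%), and none was negatively related (5.29%). A count of 1 of the 10 is near this background, so it is no result about the 10 genes as a set. This score was taken from 14 genes of fibre wasting, autophagy and stress, among them the ubiquitin ligases Fbxo32 and Trim63, and holds none of the 10. It was high in mice 4, 3 and 8, at 1.25, 0.706 and 0.678, and below 0 in the other 5 mice. Ctsl had r = 0.904 (exact permutation p = 0.00340, adjusted p = 0.231), rho = 0.881 (p = 0.00724) and r = 0.745 without mice 3 and 4, and its call held without each mouse and under every alternative. Mice 3, 4 and 8 were also the 3 highest for Ctsl, at 8707 normalized counts or more. Gene by gene, 7 of the 14 were positively related to Ctsl (background 7.44%), 5 to Ctsz (7.84%), 2 to Psap (5.20%), 2 to Ctsd (6.42%) and 1 to Ctsb (6.05%), whereas none were to Grn, Ctsa, Ctsh, Ctsk or Ctss. Of the 14 genes, 2 were negatively related to Ctsk (background 5.72%).

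A measure of library makeup moved with Ctsl and with the atrophy score. The share of reads taken by the 10 most abundant genes, which was lowest in mice 3 and 4 (18.8% and 19.6%), had r = -0.884 with Ctsl (exact permutation p = 0.00521, adjusted p = 0.0899 over 28 relations), rho = -0.810 and r = -0.842 without its 2 farthest mice. With the atrophy score the share had r = -0.871 (exact permutation p = 0.00642, adjusted p = 0.0899). Its part in the relation of Ctsl to the score was not tested. The read total of a library was not related to any of the 10 genes or the 4 scores at p under 0.05 by the exact permutation test. The count of 1 became 2 without mouse 7 or 8, and 5 with library totals.

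**Figure D5:**
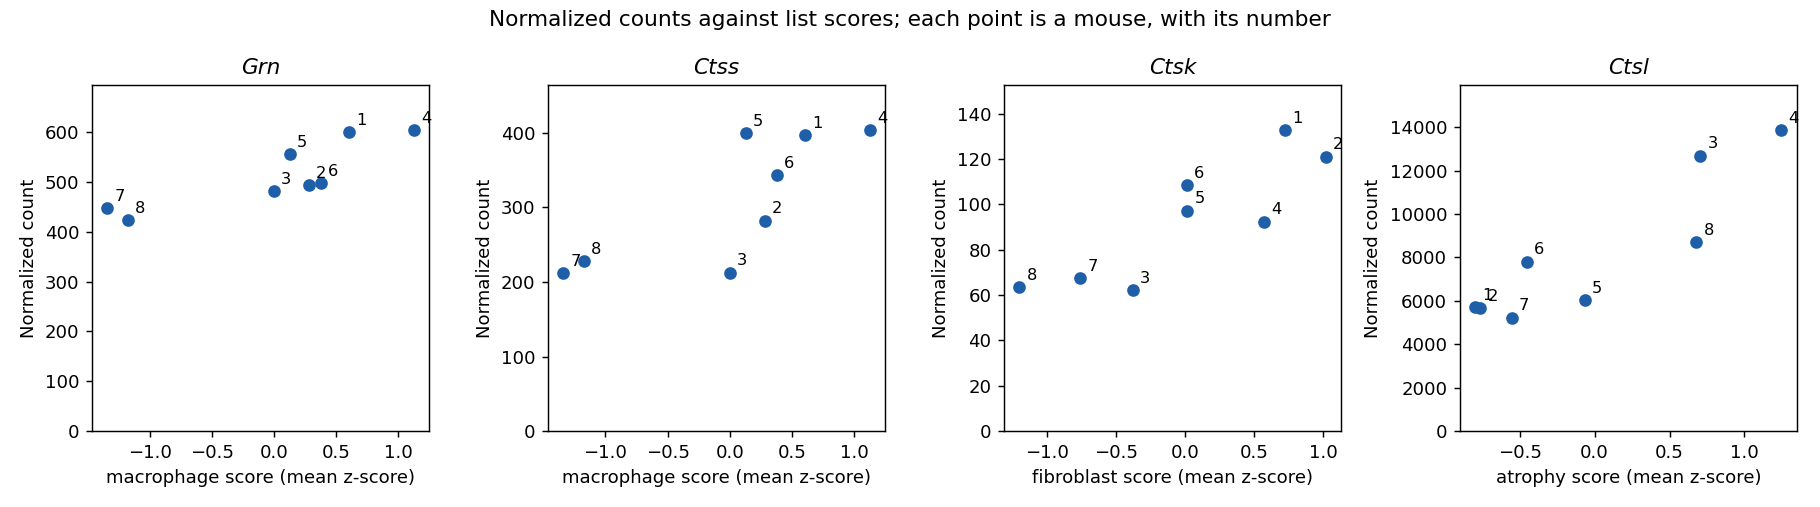
Normalized counts (vertical axes, starting at 0) of Grn and Ctss against the macrophage score, Ctsk against the fibroblast score and Ctsl against the atrophy score (horizontal axes, mean z-score), with a numbered point per mouse. Mice 7 and 8 lie apart at the low end of the macrophage score, and mice 3 and 4 lie at the top for Ctsl.

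Ctsd was related to muscle fibre markers in the opposite direction. Of the 6 markers, 5 were negatively related to Ctsd at the unadjusted threshold (background 5.13%), with a median r of -0.727. For Ctsl and Ctsb, 3 of 6 were negatively related (background 5.54% and 6.28%), with median r of -0.738 and -0.624. For Ctsa 1 of 6 passed (background 5.47%). None passed for Grn (4.39%), Psap (4.29%), Ctsh (2.18%), Ctsk (5.72%), Ctss (2.04%) and Ctsz (5.19%). The share of the 10 most abundant genes had r = -0.790 with Ctsd (exact permutation p = 0.0229, adjusted p = 0.214, rho = -0.786), and its part in these counts was not tested.

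Ctsb and Ctsa were the most closely related of the 10 genes to a score of other lysosomal genes. This lysosome score was taken from 37 genes of lysosomal enzymes, membrane proteins and the proton pump, with none of the 10 among them. At the unadjusted threshold, 3 of the 10 genes were positively related to it (background 8.01%) and none negatively (8.25%), with a median r of 0.574 for the 10 and 0.041 for all genes. With library totals, 6 genes passed. Ctsb had r = 0.888 (exact permutation p = 0.00357, adjusted p = 0.153, rho = 0.857) and 0.723 without mice 7 and 8. Ctsa had r = 0.856 (exact permutation p = 0.00365, adjusted p = 0.155, rho = 0.738) and 0.550 without these mice, and both calls held without each mouse and under every alternative. Grn had r = 0.732 (exact permutation p = 0.0415, rho = 0.667) and 0.286, and its call was lost without mouse 2, 4, 5, 6, 7 or 8, with r from 0.601 to 0.748, and with TMM factors (r = 0.695), trends on length and GC content removed (r = 0.617) or Spearman's rho (exact permutation p = 0.0831). Ctsd had r = 0.691 (exact permutation p = 0.0622) and rho = 0.833. The lysosome score itself moved with the macrophage score (r = 0.846, exact permutation p = 0.0125, adjusted p = 0.0375, rho = 0.571, r = 0.288 without mice 7 and 8).

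Counted over the 37 genes, those positively related numbered 9 for Ctsa (background 5.41%), 6 for Ctsb (6.05%), 5 for Grn (5.99%), 5 for Ctsd (6.42%) and 5 for Ctsk (5.39%). There were 4 for Ctsl (7.44%), 3 for Ctsz (7.84%), 2 for Ctss (2.70%), 1 for Ctsh (3.07%) and 0 for Psap (5.20%), and those for Ctsz and Ctsh were close to their background. Negatively related were 3 of the 37 for Ctsz (background 5.19%), 2 for Ctsa (5.47%) and 2 for Ctsb (6.28%). There was 1 each for Grn (4.39%), Psap (4.29%), Ctsd (5.13%), Ctsk (5.72%), Ctsl (5.54%) and Ctss (2.04%), and 0 for Ctsh (2.18%). The highest for Grn were Gusb, the lysosomal glucuronidase, at r = 0.846, and Asah1, acid ceramidase, at r = 0.784. The lowest for Grn was Atp6ap1, an accessory subunit of the proton pump, at r = -0.814.

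Relations with partner genes were measured for 16 genes, which gave 160 relations, of which 20 were positive and 4 negative at the unadjusted threshold. The background over all other genes was 2.70% to 7.84% positive and 2.04% to 6.28% negative, depending on the gene, so that the share of negative ones lay within the background range. None passed after adjustment in the scan of all genes. Ctsl was related to Neu1 with r = 0.899 (exact permutation p = 0.00275, adjusted p = 0.208), rho = 0.929 and r = 0.870 without the 2 mice farthest in Ctsl, and to Ctsf with r = 0.861 (exact permutation p = 0.00781, rho = 0.929) and 0.596. Ctsa was related to Glb1 with r = 0.793 (exact permutation p = 0.0123, rho = 0.905) and 0.331 without its 2 farthest mice.

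Mitf, the regulator that shares the element of Tfeb, was related to Ctsb with r = 0.868 (exact permutation p = 0.00340, rho = 0.952) and to Grn with r = 0.860 (exact permutation p = 0.00526, rho = 0.881), and these were 0.764 and 0.855 without the 2 farthest mice. The Grn window held no CACGTG, and Ctsb had no window. The genes with CACGTG did not pass with Mitf: Ctsa had r = 0.634 (exact permutation p = 0.0982), Ctsd 0.533 (p = 0.174) and Ctsl 0.420 (p = 0.305). By rank, Ctsa passed with Mitf (rho = 0.786, exact permutation p = 0.0279). A role of the element was not tested. Tfeb and Tfe3 were related to none of the 10 at this threshold. Tmem106b was related to Ctsb (r = 0.795), Ctsa (r = 0.767) and Grn (r = 0.751), with exact permutation p of 0.0124, 0.0288 and 0.0297, but none of these passed by rank (rho = 0.643, 0.476 and 0.548). Without the 2 farthest mice they were 0.455, 0.019 and 0.826. Sort1, the receptor of progranulin, had r = 0.428 with Grn (exact permutation p = 0.283). It was related to Ctsk (r = 0.796, exact permutation p = 0.0242) and Ctsh (r = 0.742, p = 0.0369) and, in the negative direction, to Ctsz (r = -0.824, p = 0.00875). By rank, the relation to Ctsk passed (rho = 0.786, exact permutation p = 0.0279), and those to Ctsh (rho = 0.714, p = 0.0576) and Ctsz (rho = -0.667, p = 0.0831) did not. The receptor Igf2r was related to Ctsd with r = 0.879 (exact permutation p = 0.00618, rho = 0.833) and 0.726 without the 2 farthest mice.

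Each of the cystatins Cstb, Cst3 and Cst6 had an r below 0 with Ctsk and above 0 with Ctsz and Psap. Cstb had r = -0.882 with Ctsk (exact permutation p = 0.00556, rho = -0.929), r = 0.859 with Ctsz (p = 0.00866, rho = 0.738) and r = 0.702 with Psap (p = 0.0456, rho = 0.714). Without the 2 farthest mice these were -0.817, 0.345 and 0.947. Psap was also related to the secreted cystatins Cst3 (r = 0.792, exact permutation p = 0.0176) and Cst6 (r = 0.761, p = 0.0337). By rank, none of the 3 relations of Psap passed (exact permutation p = 0.0576 for Cstb, 0.151 for Cst3 and 0.132 for Cst6). Cst6 was also related to Ctsz (r = 0.754, exact permutation p = 0.0355), and this passed by rank (rho = 0.762, p = 0.0368). Without the 2 mice farthest in Ctsz its r was 0.226. With Ctsk, Cst6 had r = -0.689 (exact permutation p = 0.0520) and passed by rank only (rho = -0.762, p = 0.0368). Ctsc, in contrast, had r = 0.852 with Ctsk (exact permutation p = 0.0124) and r = -0.824 with Ctsz (p = 0.00511). Ctss was related to none of the 16 by Pearson's r, but by rank it passed with Mitf (rho = 0.786, exact permutation p = 0.0279).

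The genes most like each of the 10 were named from the scan as the 3 with the highest r over the 8 mice, as a description. Grn was most like Cd109 (r = 0.957), Cxcr4 (0.951), a chemokine receptor, and Acer3 (0.950), an alkaline ceramidase. Ctss was most like 4933431E20Rik (r = 0.953), Emilin2 (0.952) and Ecm1 (0.951), the latter pair encoding matrix proteins. Ctsh was most like Gm20559 (r = 0.959), Col3a1 (0.947), a fibrillar collagen, and Naa35 (0.944). For Ctsk these were Gm26965 (r = 0.979), Bahcc1 (0.979) and Evi2b (0.972). Ctsl was most like Jagn1 (r = 0.983), Zfp282 (0.975) and Ndor1 (0.972), and Ctsd was most like Golga5 (0.985), a Golgi protein, followed by the overlapping Gm49369 (0.981) and Mcph1 (0.979). For Ctsb these were Gm12430 (r = 0.979), Pitx3 (0.978) and Ubr2 (0.963), a ubiquitin ligase, and for Ctsa Gm26920 (0.983), Zfp82 (0.974) and Gm46404 (0.954). Psap was most like Gm17767 (r = 0.964), Ttc27 (0.964) and Stoml1 (0.962), and Ctsz was most like Snx12 (0.990), a sorting nexin, Nsmce1 (0.976) and Tcea2 (0.974). None of the 10 was among the 3 genes most like another.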

How the data were processed

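Poly-adenylated RNA of skeletal muscle was sequenced, and per the labels and the methods the authors checked reads with FastQC, trimmed them with fastp, aligned them to GRCm38.p6 with STAR, counted them on genes and scaled them with DESeq2. The annotation, the use of strand and the treatment of multi-mapping reads are not given in the sources used here. The deposited signal is the read count divided by 1 size factor per library: 100% of the values were whole multiples of 1 read within 0.01 of a read, so reads were recovered and used for depth, the minimum of 10 reads and other scalings. The design had assumed raw counts. With 1 condition no count test was fitted, since no contrast exists. Each p-value is the share of all orders of these 8 mice with a correlation at least as large in absolute value as that observed. It tests only whether measures varied together across these mice, and no effect of treatment. Size factors ran from 0.906 to 1.20, totals had a median of 29419182.5 reads, and the 28 library pairs differed beyond sampling noise (chi-square per degree of freedom 13.6 to 98.5). Counting error weighed most for genes near 10 reads.

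Of the 55487 gene identifiers, 55227 were matched to GENCODE M21 for symbols, positions and lengths. Levels are means with SD. Relations are Pearson's r of log2(value + 1), with a two-sided exact permutation test for each of the 15135 genes and Benjamini-Hochberg adjustment over all of them (smallest possible p 2.48e-05). Scores are mean z-scores. Named were the 10 genes, the 3 genes most like each, all other cathepsins, legumain, cystatins, partners, regulators, sorting receptors, and, where a list is discussed with Grn, genes from the 2 with the highest and the 2 with the lowest r to it; Cx3cr1, Acp5, Lamp1, Fbxo32 and Trim63 were named besides, after values were seen. The genes, lists and relations were chosen with earlier results of these data known. The scan was tested on data with known answers, where it recovered planted relations at the unadjusted threshold but none after adjustment over all genes, so that a count of 0 after adjustment says little. Promoter windows came from RefSeq. The results were recomputed with library totals, TMM factors from edgeR, size factors of the 8 libraries alone, a pseudocount of 5, Spearman correlation, no strict read minimum, removal of GC content and length trends, transcript lengths, the median over mice and leaving out each mouse. Python 3.11.15, numpy 2.4.6, pandas 2.3.3, scipy 1.17.1, R 4.3.3 and edgeR 4.0.16 were used.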

Additional observations from a re-analysis of the deposited data

How the results depend on the processing

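None of the 23 relations called at the unadjusted threshold, for which the alternatives were run, changed sign under them; leaving out both mice 7 and 8 took Ctsa with the macrophage score from r = 0.822 to -0.021. Of 345 recomputed values of these relations, 256 kept the call and 89 lost it, and 7 relations kept it in all alternatives: Grn with the macrophage score, Ctsk with the fibroblast score, Ctsl with the atrophy score, Ctsa and Ctsb with the lysosome score, Grn with Ctss, and Ctsa with Ctsb. With library totals, 5 genes in place of 1 were related to the atrophy score, 6 in place of 3 to the lysosome score, and 16 pairs in place of 9 were positive calls. With GC content and length trends removed, 2 genes were related to the atrophy score, and with Spearman's rho 5 pairs passed. The cause of these changes was not tested. Leaving out 1 mouse at a time gave 2 to 6 genes for the macrophage score, 1 to 5 for the fibroblast score, 1 to 2 for the atrophy score, 2 to 4 for the lysosome score and 4 to 7 pairs. The order of the levels per kilobase of exons was kept without each mouse and under TMM factors and library totals. Of 150 recomputed levels per kilobase, 140 moved by less than 1 SD and 10 by more, of which 9 came from another transcript length, and the other was Ctsd at 10351 with the reads of Gm49369 added, an alternative chosen after seeing the data. Depth limits Ctsk and Ctsh most, with 58 to 125 and 113 to 175 reads. No paired analysis was possible because all 8 mice share a treatment.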
